A study of Mus musculus with 3 samples.

Results

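The Cish to Gpx1 locus is a gene-dense stretch of mouse chromosome 9, and 6 of its promoters, those of Cish, Tusc2, Rbm6, Uba7, Apeh and Gpx1, were examined as capture viewpoints. They were chosen by viewpoint name, in order along the chromosome, from 7184 viewpoint names in the contact table, and all 6 had contacts in all 3 libraries. Their viewpoint fragments run from chr9:107198613 to chr9:108241561 in mm9, with 1042 kb between the first and the last. The window up to 200 kb beyond both ends held 31 viewpoints, of which 29 passed the depth minimum of 1000 events, and the 23 that are not among the 6 serve as neighbours for comparison.

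The contacts were measured by nuclear-titrated Capture-C, in which chromatin is cut with DpnII at GATC, ligated in nuclei and enriched for chosen fragments with biotinylated probes. The cells were ter119+ erythroid cells from the spleens of F1 mice from a C57BL/6 by CBA/J cross, in which 3 doses of phenylhydrazine given 12 hours apart had brought on anaemia before the spleens were taken on day 5. There was 1 group of 3 libraries, called a, b and c here, with no untreated or other control group, so no comparison between conditions was possible. No expression was measured in these files, so the labelled cell type could not be checked against marker genes.

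In chromosome conformation capture, a ligation event between a viewpoint and another fragment records that both lay close together in a nucleus, and such events become rarer with distance along the chromosome. Gene-dense chromosomal stretches hold many promoters within reach of one another, and active genes tend to be found near other active genes. Cish encodes an SH2 protein that is induced by STAT5 downstream of the erythropoietin receptor and dampens cytokine signalling. Tusc2 belongs to the cluster of candidate tumour suppressor genes on the short arm of human chromosome 3, Rbm6 encodes an RNA-binding splicing regulator, and Uba7 encodes the activating enzyme for the ubiquitin-like protein ISG15. Apeh encodes an acylaminoacyl-peptide hydrolase that removes blocked amino acids from the ends of peptides, and Gpx1 encodes a glutathione peroxidase that protects red cells from peroxides.

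The promoter of Cish is shown first, because it opens the locus and because its best-known regulators have a defined motif. The RefSeq sequence spans 250 bases before to 50 after the gene's start, was taken from the GRCm38.p6 table, and was found unchanged in mm9 at chr9:107198740-107199039 on the + strand, where all 300 bases lie in the viewpoint fragment. Capitals mark matches to the STAT motif TTCNNNGAA, which reads the same on both strands.
Cish promoter: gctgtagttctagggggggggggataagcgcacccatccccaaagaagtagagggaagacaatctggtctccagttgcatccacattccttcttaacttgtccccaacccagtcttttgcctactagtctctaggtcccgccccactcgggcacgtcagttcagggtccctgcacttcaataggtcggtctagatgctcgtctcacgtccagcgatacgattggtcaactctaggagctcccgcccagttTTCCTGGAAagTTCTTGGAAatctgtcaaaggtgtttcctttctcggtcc
It held 2 matches, which stood side by side at and directly after the RefSeq start, and the whole viewpoint fragment of 802 bp held 4, while 8.30% of 32851 RefSeq mouse promoters of the same length held at least 1. None of the other 5 promoters held a match to this motif, nor did any of the 6 hold AGATAA, CCACNCCC or the CTCF core motif on either strand, which 11.2%, 17.6% and 2.43% of all promoters held. The whole Apeh viewpoint fragment of 1128 bp held 1 CTCF core match. No match says only that those letters were not in these windows. The Uba7 promoter held 2 CpG dinucleotides, whereas the other 5 held 11 to 21. Its share of G or C, 44.7%, was close to the 47.0% of Gpx1, while the other 4 had 53.3% to 64.3%. It is shown for its CpG count, with no motif marked, at chr9:107877648-107877947 in mm9 on the + strand.
Uba7 promoter: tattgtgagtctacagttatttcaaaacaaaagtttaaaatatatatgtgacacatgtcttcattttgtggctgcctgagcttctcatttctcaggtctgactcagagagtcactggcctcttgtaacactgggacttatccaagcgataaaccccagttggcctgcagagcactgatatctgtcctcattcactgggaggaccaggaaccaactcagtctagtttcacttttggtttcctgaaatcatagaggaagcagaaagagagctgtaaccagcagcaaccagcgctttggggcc
For Tusc2, Rbm6, Uba7 and Apeh, the promoter sequence likewise lay whole inside the viewpoint fragment. For Gpx1, 99 of its 300 bases did, since the viewpoint, listed at chr9:108241360-108241561, was a short fragment of 198 bp, and the GENCODE start of Gpx1 lay 46 bp outside it. The outermost GENCODE start of Cish also lay outside its viewpoint, by 256 bp, with 4 of its 6 transcript starts inside. The RefSeq promoters of all 6 were found in the table and matched to mm9.

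Depth differed between the 6 promoters. Cish had the most cis events, with 8002, 11891 and 11736 in libraries a, b and c, and 92.7% of tested viewpoints had a sum at or below its own. Gpx1 had the fewest, with 1234, 1934 and 1804. The sums over the 3 libraries were 10836 for Tusc2, 8549 for Rbm6, 13386 for Uba7 and 7724 for Apeh, against a median of 7022.5 for the 6718 tested viewpoints. The precision of each value below follows the events behind it, which depend on distance as well as on this depth. Intervals cover counting error alone. Over fragments from 2.5 kb to 1 Mb of the 6 promoters, libraries a and b differed by a chi-square per fragment of 1.01, where sampling noise gives 1. The value was 0.992 between a and c, and b differed from c by 0.989. Over all tested viewpoints these were 1.03, 1.02 and 1.005. Over so many fragments even b and c differed beyond sampling noise, with a p of 8.56e-22 by the chi-square test. Libraries b and c, the closest pair over the series, were averaged into 1 value, so that each mean and SD has n = 2. That choice came from the data, and the study describes independent libraries. For these promoters b and c were about as close as a and c, and taking the 3 libraries as separate samples made the SD larger for 7 and smaller for 12 of the 19 values given with one, by 0.817 to 1.88 times. Nothing in the labels ties libraries to separate animals, and the SDs may be technical.

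The contacts of these promoters were more local than those of most viewpoints. The share of cis events from 2.5 kb to 1 Mb was 50.2% ± 2.12 (SD, n = 2) for Cish, 58.2% ± 3.46 for Tusc2 and 64.0% ± 3.00 for Rbm6. It was 68.4% ± 2.80 for Uba7, 70.0% ± 2.81 for Apeh and 68.4% ± 2.51 for Gpx1. The median of all tested viewpoints was 42.3%. With the 3 libraries summed, 99.0% of viewpoints had a share at or below that of Uba7, 99.3% at or below that of Apeh and 99.1% at or below that of Gpx1. Cish stood lower in this ranking, at 76.0%. Within that range, the decay of mean events per fragment with distance, both on log10 scales, was flattest for Rbm6. Its slope was -0.724 ± 0.00311 (SD, n = 2), with -0.726, -0.717 and -0.727 in libraries a, b and c. Averaging b and c hides their difference, and the SD over the 3 libraries was 0.00585. Of the tested viewpoints, 95.1% had a slope steeper than or equal to that of Rbm6. The slopes of Cish, Apeh, Gpx1, Tusc2 and Uba7 were -0.83, -0.97, -0.99, -1.01 and -1.04, against a median of -0.91.

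Each of the 6 promoters made more contacts on the side on which the stretch from Uba7 to Apeh lies than on the other side. For Rbm6 and Uba7 this is the side that holds less of the locus. The lean was counted over whole sides, and the part that the stretch itself held differed between promoters. From Cish the stretch held 332 of 15642 events, while it held 3359 of 8994 from Uba7 and 1918 of 5328 from Apeh. At 500 to 1000 kb from Cish, where the stretch lies, the lower side held more events than the higher, 1390 against 1188. Between 2.5 kb and 1 Mb, the side of higher coordinates, which for Cish is the side of the other 5 promoters, held 62.0%, 62.9% and 63.2% of the events of Cish in libraries a, b and c. The value was 63.5%, 60.6% and 61.6% for Tusc2, 64.0%, 61.9% and 61.7% for Rbm6, and 61.6%, 60.9% and 59.8% for Uba7. For the last 2 promoters the side of lower coordinates was favoured, so that the higher side held 37.1%, 38.9% and 38.9% for Apeh and 39.5%, 38.9% and 38.9% for Gpx1. No library of Apeh or Gpx1 overlapped with any library of the other 4, as the plot of shares by side shows. The listed fragments and their distances alone gave expected shares of 47.3% to 51.8%, and no exact binomial 95% interval of the 6 sums contained the expected value.

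**Figure D1:**
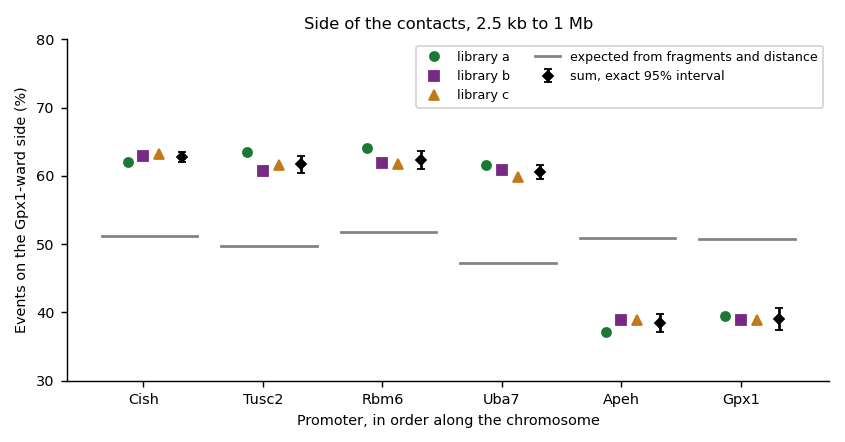
Share of events from 2.5 kb to 1 Mb on the side of higher coordinates (y axis, %), by promoter in chromosomal order. Coloured points are the 3 libraries, black diamonds the sum with its exact binomial 95% interval, and grey lines the share expected from the listed fragments and their distances. The first 4 promoters lie above 59% and the last 2 below 40% in all libraries.

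Leaning of this size was common among all viewpoints. The ratio of observed to expected share departed from 1 at least as much in 28.6% of tested viewpoints for Cish, 26.5% for Tusc2, 32.9% for Rbm6 and 20.7% for Uba7. For Apeh and Gpx1 the values were 15.4% and 17.8%. Pooled over the 6, 61.9% of events lay on the side of the Uba7 to Apeh stretch, a side chosen with the values known, with 62.4%, 61.7% and 61.7% in the 3 libraries, where 49.9% were expected. Most neighbouring viewpoints leaned to the same side, counted here against 50% and not against an expected share. Of 11 other viewpoints below Uba7, 10 had over 50% of events on the higher side, the exception being Hemk1 at 42.6%. Of 7 above Apeh, 5 had under 50% there, the exceptions being Nicn1 at 52.6% and Rhoa at 55.3%. The size of the lean varied. On the higher side Tmem115 had 51.7%, Naa80 54.0% and Dag1 48.7%, while Mon1a and Traip had 64.4% and 63.1%. Several of those below Uba7 stand side by side around Tusc2, so they are not separate positions of the locus.

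Along the locus, the contacts rose above and fell below the expected count in blocks, as the plot of the 6 profiles shows. One shared block was the stretch from Uba7 to Apeh, where 6 of 6 windows of 20 kb exceeded expectation from each promoter. These windows lie at a different distance from each of them.

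**Figure D2:**
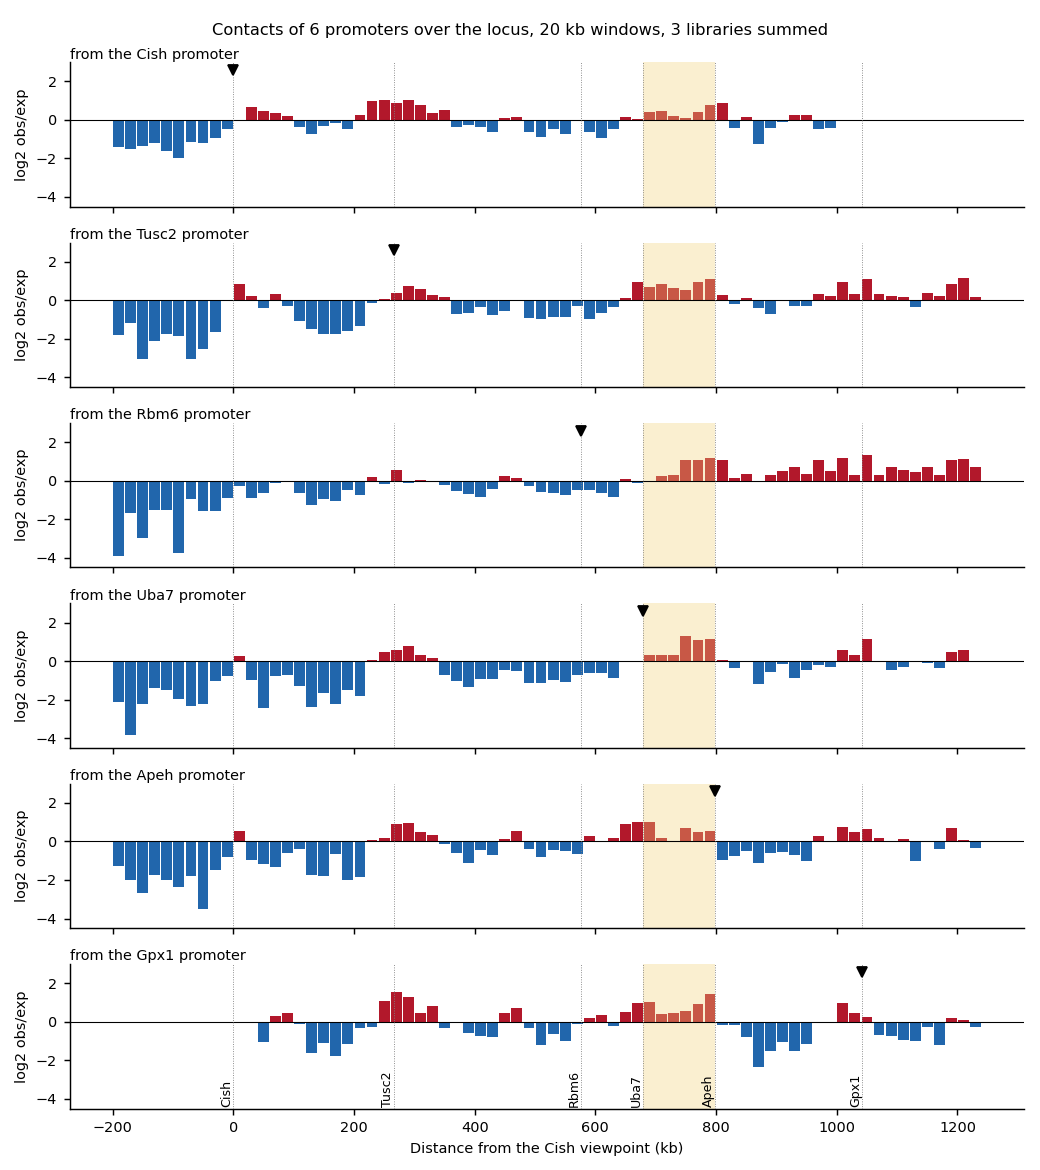
log2 of observed over expected events, each with 1 event added, in 20 kb windows from each of the 6 promoters (panels), against distance from the Cish viewpoint in kb, with the 3 libraries summed and windows of under 5 expected events left out. Red bars exceed and blue bars fall below the expected count, triangles mark the viewpoint, dotted lines the 6 promoters and the shaded band the stretch from Uba7 to Apeh, where the 6 bars of every panel are red.

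The stretch between Uba7 and Apeh, 119 kb wide, exceeded expectation from all 6 promoters in all 3 libraries. From Cish, 679 to 798 kb away, it held 76, 129 and 127 events in libraries a, b and c, which was 1.23, 1.34 and 1.32 times the expected count. From Tusc2 it held 58, 115 and 116 events, or 1.54, 1.83 and 1.86 times expectation. From Rbm6 the ratios were 1.64, 1.38 and 1.57, on 169, 224 and 244 events. These 3 promoters view the stretch from below it, and none of their libraries fell to expectation. From Uba7, at its lower edge, the ratios were 1.55, 1.49 and 1.46, and from Apeh, at its upper edge, they were 1.49, 1.52 and 1.52. From Gpx1, on the far side, it held 70, 101 and 89 events, or 1.98, 1.88 and 1.68 times expectation. For 5 of the 6 promoters this was the stretch with the highest ratio of those measured, while Rbm6 had a higher ratio beyond Gpx1, of 1.70 in the sum. It was the highest stretch for 9 of the 23 neighbouring viewpoints, and for 6 of the 18 that lie outside it. Pooled over the 6 promoters the ratio was 1.52 ± 0.0230 (SD, n = 2).

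**Figure D3:**
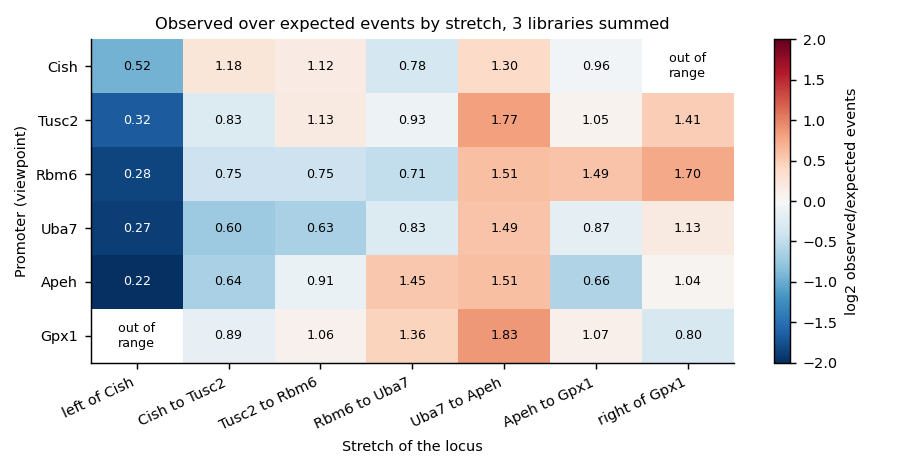
Observed over expected events (numbers, with colour on a log2 scale) from each promoter (rows) in the stretches between neighbouring promoters and 200 kb beyond both ends (columns), for the sum of the 3 libraries. The Uba7 to Apeh column lies between 1.30 and 1.83 and the column left of Cish between 0.22 and 0.52.

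Windows at the same distance were examined from all tested viewpoints, on both sides, to place these ratios. The stretch was chosen with these values known and the windows were not, so the percentages are a description. The windows were matched for distance alone, not for the promoters in them, and the stretch holds several viewpoints. Within 10 kb of another viewpoint, the ratio over the whole series was 1.44 pooled, with a median of 1.47. The stretch gave 1.51 in the pooled sum, near these values. How it ranks among windows equally rich in promoters was not tested. A ratio as high was found in 5.07% of such windows for Gpx1, 7.12% for Tusc2, 7.95% for Apeh, 8.76% for Uba7, 11.3% for Rbm6 and 22.9% for Cish. The ratio of each promoter was above the median of these windows, which ran from 0.804 to 1.05. Of the 23 neighbouring viewpoints of the locus, 18 had a ratio above 1 in each library. Among the 18 outside the stretch the median was 1.47, with the lowest value of 0.362 from Hemk1, on 7 events, and the highest of 1.92 from Hyal3. Besides Hemk1, Tmem115 and Dag1 fell below 1 in the sum, at 0.948 and 0.911.

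The stretch holds Uba7, Fam212a, Cdhr4, Ip6k1, an inositol hexakisphosphate kinase gene, Gmppb, which encodes an enzyme of sugar nucleotide synthesis, Rnf123, which encodes a ubiquitin ligase, Amigo3, Mst1 and Apeh. Of 98 listed fragments of 50 to 300 bp in it with at least 3 expected events, those with the highest ratio over the 6 promoters, counting viewpoints at least 10 kb away, included 1 in Gmppb, 1 in Amigo3 within Rnf123, and 1 in Apeh. They were chosen after their values were seen. Those in Gmppb and Apeh are shown as examples of contacted DNA, read from mm9 on the + strand, and were searched on both strands for AGATAA, the CTCF core motif and CCACNCCC, a CACC motif bound by Krüppel-like factors. Neither held a match, so no base is in capitals.
Gmppb fragment, chr9:107951861-107952110: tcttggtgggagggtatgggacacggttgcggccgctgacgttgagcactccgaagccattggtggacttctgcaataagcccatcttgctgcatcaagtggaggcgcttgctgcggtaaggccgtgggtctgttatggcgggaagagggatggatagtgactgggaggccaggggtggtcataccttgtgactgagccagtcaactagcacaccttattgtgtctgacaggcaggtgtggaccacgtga
Apeh intron fragment, chr9:107989688-107989912: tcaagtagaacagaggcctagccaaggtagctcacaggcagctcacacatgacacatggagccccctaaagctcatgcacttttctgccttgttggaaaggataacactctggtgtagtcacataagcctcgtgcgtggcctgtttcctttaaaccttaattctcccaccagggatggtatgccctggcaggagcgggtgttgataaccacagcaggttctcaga
The Amigo3 fragment, chr9:107957346-107957593, lies in the untranslated end of Amigo3 inside Rnf123. It held 42 events against 14.2 expected, with ratios of 2.13, 2.92 and 3.48 in libraries a, b and c. It held 2 matches to CCACNCCC, and 10.8% of 489 listed fragments of similar length in the window held at least 1. The Gmppb fragment, which overlaps an exon, had 33 events at a ratio of 2.46. The fragment in an Apeh intron had 18 events at a ratio of 2.47. Events from Apeh were not counted for the Apeh fragment, which lies within 10 kb of that viewpoint. Uba7 gave 20 of the 33 events of the Gmppb fragment, 16 of the 42 of the Amigo3 fragment and 10 of the 18 of the Apeh fragment.

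The stretch left of Cish had the fewest contacts for its distance. From Cish itself it held 801, 997 and 950 events in its nearest 200 kb, which was 0.554, 0.515 and 0.492 of expectation, and 99.4% of windows at that distance had a ratio at least as high. Seen from the other promoters in reach, the ratio in the sum was 0.316 from Tusc2, 0.281 from Rbm6, 0.270 from Uba7 and 0.220 from Apeh. Ratios this low were less rare at those distances, since 90.6% of windows for Tusc2 and 88.6% for Rbm6 were at least as high. From Uba7, for example, 7, 27 and 35 events were seen where 46.4, 102 and 108 were expected. The loss began close to the Cish promoter. At 10 to 50 kb the ratio was 0.544 ± 0.0394 (SD, n = 2) on the left and 1.41 ± 0.0342 on the right. At 50 to 100 kb it was 0.414 ± 0.0168 on the left and 1.24 ± 0.0334 on the right.

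Farther left, the contacts of Cish returned. Its 3 bins of 5 kb with the lowest adjusted p, at chr9:106785001-106800000, lay 402 to 412 kb away around the Manf promoter, with Rbm15b and Vprbp on one side and the 3′ end of Dock3 on the other. Manf encodes a secreted factor of the endoplasmic reticulum stress response. The nearest to Cish, at chr9:106795001-106800000, held 16, 25 and 26 events in the 3 libraries, or 4.70, 4.91 and 5.10 times expectation. By the negative binomial test with Benjamini-Hochberg adjustment its adjusted p was 0.113, so it was not called. The other bins of the group held 80 and 90 events at ratios of 4.11 and 3.56, with adjusted p of 0.246 and 0.401. With bins of 2 kb, the bin chr9:106796001-106798000 was called from Cish, with 29 events, a ratio of 7.45 and an adjusted p of 0.0400 by the same test, beside 3543 bins of that size called over all viewpoints.

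No 5 kb bin was called from any of the 6 promoters. Over the whole table, 2677 of 2660506 bins, or 0.101%, were called by the negative binomial test, that is, had an adjusted p under 0.05 and a count above expectation in all libraries, and 0 of the 2374 bins of the 6 promoters did. At an unadjusted p under 0.05, 111 of the 2374, or 4.68%, passed, beside 4.13% of all bins. This share is near the background and says nothing particular of the 6 promoters. A Poisson test, which leaves out the spread among viewpoints at the same distance, called 198 of the 2374 bins, and 149333 of the 2660506 over all viewpoints.

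The bins of lowest adjusted p for the other promoters, none of them called, lay in or beside other genes of the region. From Uba7 they were at Gmppb and Rnf123, about 75 kb away, where chr9:107950001-107955000 held 42, 61 and 74 events, or 3.67, 2.74 and 3.14 times expectation, with an adjusted p of 0.125 by the negative binomial test. A 2 kb bin within it, chr9:107952001-107954000, was called at 67 events, a ratio of 4.29 and an adjusted p of 0.0444 in that test. Only 2 bins of 2 kb were called from the 6 promoters, beside 3543 over all viewpoints. How many such bins were tested was not recorded, so no share can be set beside them. Bins of 10 kb and single fragments gave 0 calls from the 6. The next bins from Uba7 were at Rnf123 and Ip6k1, with ratios of 2.84 and 2.49. From Gpx1 the lowest adjusted p, 0.185 by the same test, was in Apeh, at chr9:107990001-107995000, 249 kb away with 1, 10 and 6 events, or 1.18, 7.83 and 4.76 times expectation, so the excess was small in library a. The bin chr9:108210001-108215000 in an intron of Rhoa, the gene of a small GTPase, held 38, 67 and 61 events from Gpx1. Its ratio was 2.55 and its adjusted p 0.383. With expectation in proportion to fragment length it was called, at a ratio of 3.56 and an adjusted p of 0.0390 by the negative binomial test. It was the only one of the 2374 bins of the 6 called in that setting, beside 1484 of 2660506 over all viewpoints. The third Gpx1 bin, at Rbm5, held 11 events.

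From Rbm6 the 3 bins lay at Gpx1 and Rhoa, at Impdh2 and Qrich1, and at Rhoa and Tcta. The first, chr9:108240001-108245000, held 5, 9 and 10 events, or 4.09, 4.41 and 5.07 times expectation, all above expectation on small counts. From Tusc2 they lay at Ifrd2, at Qars and at Usp19. The Ifrd2 bin, chr9:107490001-107495000, held 25, 34 and 29 events at ratios of 2.51, 2.33 and 2.01. From Apeh they lay at the same Ifrd2 bin, with 12 events, at Uba7, with 90 events at a ratio of 2.67, and at Traip and Camkv, with 57 events at a ratio of 2.80. Adjusted p values of the Rbm6, Tusc2 and Apeh bins in the negative binomial test ran from 0.289 to 0.699.

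Some 5 kb bins passed an unadjusted p of 0.05 in the negative binomial test, with a count above expectation in each library, from several promoters. The Ifrd2 bin passed from Cish, Tusc2, Uba7, Apeh and Gpx1. The bins chr9:107960001-107965000 in Rnf123 and chr9:107985001-107990000 at Rnf123, Mst1 and the end of Apeh passed from Tusc2, Rbm6, Uba7, Apeh and Gpx1. The bin of Hyal3 and Naa80 at chr9:107480001-107485000 passed from 4 promoters, as did the bin at Gpx1 and Rhoa. The bin at the end of Apeh lies within 25 kb of the Apeh viewpoint, and that of Hyal3 and Naa80 within 25 kb of Tusc2. These profiles come from the same 3 libraries, and the bins were picked after their values were seen. How often neighbouring viewpoints of the series share such bins was not tested.

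Several long genes of the locus whose promoters are not in the viewpoint list made few contacts with the 6 promoters. The list was designed mostly on promoters active in these cells, with a small set of inactive control promoters, so that activity of a listed promoter and its capture by probes cannot be told apart here. Dock3, which encodes a guanine nucleotide exchange factor of neurons and spans 339 kb at chr9:106795165-107134240, is not listed. Its body held 389, 552 and 568 events from Cish, at ratios of 0.528, 0.524 and 0.540. From Tusc2, Rbm6, Uba7 and Apeh the ratios in the sum were 0.251, 0.186, 0.205 and 0.181. Cacna2d2, a calcium channel subunit gene of 130 kb between Cish and Tusc2, was below expectation in each library from all 6 promoters, at 0.304 from Uba7 to 0.854 from Cish. Mapkapk3, next to Cish, ran from 0.280 to 0.535 over 5 promoters. Mapkapk3 and part of Dock3 lie in the stretch left of Cish, so these low ratios partly repeat those of that stretch. Bsn, which encodes a presynaptic scaffold protein and lies next to Apeh, depended on the viewpoint. It was at 0.582 from Apeh and 0.572 from Gpx1, at 1.00 from Cish and at 1.34 from Rbm6.

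**Figure D4:**
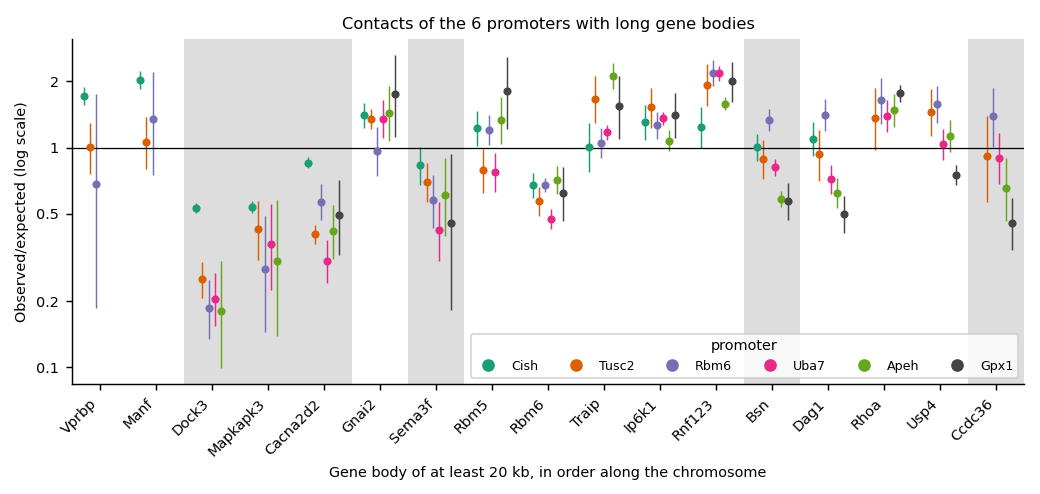
Observed over expected events (y axis, log scale) from each promoter (colours) in bodies of genes of at least 20 kb, in chromosomal order, for the sum of the 3 libraries with exact Poisson intervals, where at least 5 events were expected. Grey columns are genes with no promoter in the viewpoint list. Dock3, Mapkapk3 and Cacna2d2 lie below 1 from every promoter measured and Rnf123 lies above 1.

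Bodies of listed genes went the other way, with exceptions. Rnf123 exceeded expectation from all 6 promoters in each library, from 1.24 for Cish to 2.19 for Rbm6. From Rbm6 it held 45, 84 and 91 events, or 1.85, 2.17 and 2.44 times expectation. Rhoa was at 1.37 to 1.76 over 5 promoters, Ip6k1 at 1.08 to 1.53 and Traip, which encodes a ubiquitin ligase, at 1.01 to 2.13 over 6. Rbm6 was an exception. Its body of 99.3 kb was below expectation in each library from all 6 promoters, at 0.473 from Uba7 to 0.712 from Apeh, and its own promoter gave 0.619, 0.708 and 0.680 in libraries a, b and c. Dag1, the dystroglycan gene, was below expectation in the sum from Tusc2, Uba7, Apeh and Gpx1, at 0.931, 0.719, 0.624 and 0.499, and at 1.41 from Rbm6. Rbm5 was below expectation in each library from Tusc2 and Uba7, at 0.788 and 0.777 in the sum. Also below expectation in each library were Usp4 from Gpx1, at 0.750 in the sum, and Vprbp from Rbm6, on 4 events. Among unlisted genes, Ccdc36 was above expectation in each library from Rbm6, at 1.23, 1.53 and 1.33.

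Over all protein-coding genes from 25 kb to 1 Mb away, the ratio of observed over expected in bodies of listed genes to that in bodies of unlisted genes was above 1 for the 6 promoters in each library. It was 1.97 ± 0.109 (SD, n = 2) for Cish, 1.87 ± 0.0309 for Tusc2 and 1.43 ± 0.179 for Rbm6. It was 1.74 ± 0.122 for Uba7, 1.69 ± 0.111 for Apeh and 1.60 ± 0.210 for Gpx1. This too was a feature of the series, with a median of 1.52 over 6098 viewpoints and a ratio above 1 in 88.2% of them. A ratio as high as that of Cish was found in 23.7% of viewpoints, and as high as that of Rbm6 in 52.2%.

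Contacts between the 6 promoters themselves had to be read beside them, since captured fragments were not listed as contacts. In the 2 fragments on each side of another promoter, 61 of 89938 directed pairs of viewpoints, or 0.0678%, were called over the series, and 0 of 212 from the 6 promoters were. The lack of a call does not show a lack of contact, since flanks at several times expectation were not called. At an unadjusted p under 0.05 by the negative binomial test and a count above expectation in each library, 2 of the 212 passed, beside 5.75% of all pairs. These were the flanks of Manf from Cish, with 4, 14 and 14 events at a ratio of 4.11, and of Traip from Apeh, with 9, 7 and 9 events at 3.38. Their adjusted p in that test were 0.616 and 0.584. The number passing unadjusted depended on the setting, with 9, 3 and 4 without library a, b or c and 15 with expectation by fragment length. The share of all pairs passing in these settings was not recorded, so none can be set beside these counts. Many other flanks tied at an adjusted p of 0.616. With ties ordered by unadjusted p, the first of each promoter were those of Hemk1 and Vprbp from Cish, of Rnf123, Gpx1 and Usp19 from Tusc2, and of Tusc2, Dag1 and Impdh2 from Rbm6. From Uba7 they were those of Gmppb, Rnf123 and Cish, from Apeh those of Impdh2 and Rhoa, and from Gpx1 those of Apeh, Ifrd2 and the shared viewpoint of Nprl2 and Cyb561d2. Their ratios ran from 1.93 for Hemk1 from Cish to 6.38 for Nprl2 and Cyb561d2 from Gpx1. The latter rested on 0, 1 and 4 events in libraries a, b and c. Other flanks named here also had a library with no event, such as Rnf123 from Tusc2 and Impdh2 from Apeh. Over all 212 flanks the ratio was 1.33, beside 1.48 for the series. Counts between the 6 were low, with 198 events in all against 135 expected over 28 directed pairs. That is a ratio of 1.47 in the sum, near the 1.48 of the series. The ratio was 1.56, 1.33 and 1.55 in the 3 libraries. In the sum 19 of the 28 pairs were above 1, while the median of all flanks in the series was 1.29. The pairs below 1 included Rbm6 to Uba7, with 4 events at a ratio of 0.410, Apeh to Rbm6, with 2 at 0.410, and Cish to Uba7, with 2 at 0.431. From Cish the flanks of Tusc2 held 7, 8 and 16 events, at a ratio of 2.52. From Rbm6 the flanks of Tusc2 held 2, 5 and 5, at 3.28, and from Gpx1 the flanks of Apeh held 1, 6 and 2, at 3.32. In the opposite directions the ratios were 1.00, 1.67 and 1.63, and all these intervals for counting error overlapped.

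Taking all fragments within 10 kb of another promoter, a width chosen after seeing the data, gave 2304 events over the 28 directed pairs and a ratio of 1.46 in the sum, or 1.48 ± 0.0460 (SD, n = 2). Over 76947 directed pairs of all viewpoints the sum gave 1.44 and the median was 1.47. Of those pairs 80.0% had a ratio above 1, so that being above expectation is common. The neighbourhood of Apeh was above expectation from all 5 other promoters, from 1.92 for Uba7 to 2.40 for Gpx1, and its ratio was 2.24, 2.05 and 2.05 in the 3 libraries. That of Tusc2 was also above expectation from all 5, at 1.65, 1.68 and 1.70 in the libraries. That of Gpx1 was above expectation from the 4 within 1 Mb, at 1.87, 1.97 and 2.28. The neighbourhood of Rbm6 was the lowest, at 0.795, 0.653 and 0.826, or 0.752 in the sum. It was below expectation from Tusc2, Uba7 and Apeh, at 0.721, 0.632 and 0.692. Cish and Gpx1, more than 1 Mb apart, were read with the range extended to 1.2 Mb. From Cish the neighbourhood of Gpx1 held 14, 20 and 25 events, at a ratio of 1.82, and from Gpx1 that of Cish held 0, 9 and 2, at 1.30.

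**Figure D5:**
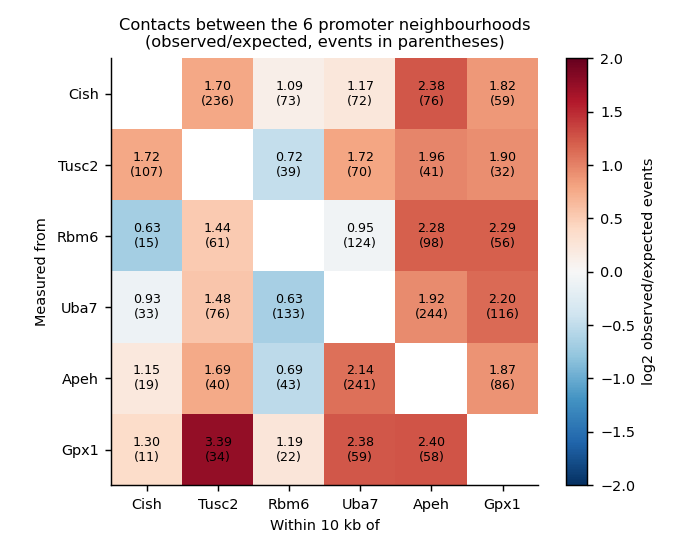
Observed over expected events (numbers, with events in parentheses and colour on a log2 scale) within 10 kb of each promoter (columns) as measured from each other promoter (rows), for the sum of the 3 libraries. The Apeh column lies between 1.92 and 2.40, and the Rbm6 column between 0.63 and 1.19.

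The profiles of the 6 promoters were compared with one another across the locus. How much of their likeness comes from shared fragments and libraries was not tested. Pearson's r of log2 observed over expected in 5 kb bins, with bins within 25 kb of either viewpoint left out, was positive for all 15 pairs, with a median of 0.448. It was highest for Uba7 with Apeh, at 0.654, and for Tusc2 with Uba7, at 0.626, and lowest for Rbm6 with Gpx1, at 0.266. The bins share libraries and fragments, and r was not adjusted for the differing depth of the viewpoints. The values are given as a description over 185 to 192 bins for pairs with Cish or Gpx1 and 190 for the others. In single libraries the medians were 0.308, 0.346 and 0.347, while the same promoter correlated between libraries at 0.391 to 0.698. Of the other 28 tested viewpoints, the profile most like that of Cish was that of Naa80, at 0.473, followed by Nprl2 and Cyb561d2, which share a viewpoint, at 0.449. Naa80 was also the most like Tusc2, at 0.681, and Uba7, at 0.719, with its neighbour Hyal3 next in both. Rbm6 was most like Uba7 and Mon1a, at 0.600 and 0.547. Apeh was most like Uba7 and Rnf123, at 0.654 and 0.644, and Gpx1 was most like Rhoa and Mst1, at 0.567 and 0.556.

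The genes around the 6 promoters were grouped by role, and no flank of any group was called from any of them, beside a median ratio of 1.29 over all flanks of the series. Of 13 genes with homologues in the human tumour suppressor cluster, 9 have a viewpoint, in 8 fragments. Their median flank ratio ran from 0.831 from Uba7 to 2.29 from Gpx1, and it was 1.95 from Cish, which had 166 events there. With the flanks pooled, the ratio from Uba7 was 1.25 and the lowest was 1.09, from Tusc2. Of 6 genes of ubiquitin-like conjugation and protein turnover, all have a viewpoint, and their medians ran from 1.03 from Cish to 2.22 from Rbm6. The 2 RNA-binding genes Rbm5 and Rbm6 had medians from 0.343 from Apeh to 1.08 from Tusc2, which were below the series' median from all 6. These rest on 9, 10, 5, 17, 3 and 1 events from Cish, Tusc2, Rbm6, Uba7, Apeh and Gpx1, and from Rbm6 on 1 flank. Counts this low do not show a shared shortfall. Of 8 genes of G proteins and signalling, 5 have a viewpoint, with medians of 0.866 to 1.69. From Tusc2 their median was 1.66 but the pooled ratio 0.813. The sugar transfer pair Gmppb and Dag1 ran from 0.795 to 2.78, and Amt, Gpx1 and Nicn1, of which 2 have a viewpoint, from 0.616 to 2.25. Most of these values rest on fewer than 60 events and their order was not tested.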

How the data were processed

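Promoter contacts were measured by nuclear-titrated Capture-C in 3 libraries of 1 group. The authors processed paired reads with CCseqBasic programs and CaptureCompare. The labels' processing notes also name Trim Galore, Bowtie and mm9, without versions. Each value they deposited is a signal, the reporters of a contact scaled to 100000 cis reporters for that viewpoint and library. The 3 value columns carry no names and were treated as replicates without numbers. A second deposited file gives viewpoint positions.

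To return to counts, values were divided by the smallest nonzero value of their viewpoint and library, read as 1 event, and 100% came out whole within 0.01 events. Over 7176 viewpoints with a position, the libraries held 18211066, 34393796 and 34199631 cis events. Fragments were matched to a DpnII digest of the NCBIM37 genome, which is mm9, and 170 of 47812899 contacts were off it. Genes came from GENCODE M1. The expected count was the mean per fragment in 50 log-spaced distance bins from 2.5 kb to 1 Mb over 6718 viewpoints with at least 1000 events, times the viewpoint's total in that range. Bins of 5 kb and flanks of 2 fragments per side, at least 10 kb away, were tested on summed counts with a negative binomial upper-tail (one-sided) test. The dispersion was set per distance bin, without the top 0.1% of standardised counts, and Benjamini-Hochberg adjustment ran over all units. A call needed an adjusted p under 0.05 and a count above expectation in each library. Values were computed in Python 3.11.15 with numpy 2.4.6, scipy 1.17.1, pandas 2.3.3 and matplotlib 3.10.9. The test was also tried on simulated data, but the outcome is not given here and nothing is drawn from it. Exact binomial and Poisson intervals are 95%.

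Members, gene lists and tests were chosen with earlier results of these data known. Named were all 6 promoters and pairs of them, the 3 bins over 25 kb away with the lowest adjusted p per promoter, the 3 flanks over 25 kb away with the lowest adjusted p per promoter (ties ordered by unadjusted p), and the 2 most similar viewpoints. The 10 kb neighbourhoods and the comparison of gene bodies were added after seeing the data. Alternatives covered the distance range, dispersion, Poisson counts, fragment length, weighting, bin and flank sizes, and leaving out each library. A further contacted fragment is not reported here.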

Additional observations from a re-analysis of the deposited data

How the results depend on the processing

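No paired analysis was possible because the 3 libraries form 1 group and their columns carry no replicate numbers. The direction held under all alternatives run for the lean to the side of the Uba7 to Apeh stretch and the excess from Uba7 to Apeh. It also held for the flanks, the likeness of profiles and the comparison of gene bodies. For single promoters the ratio from Uba7 to Apeh was at least 1.23 and the share on its side ran from 60.1% to 65.7% over the alternatives run. The expectation by fragment length cannot move that share, which uses no expected count.

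No 5 kb bin and no flank was called with any library left out. Poisson counts gave 198 of 2374 bins and 15 of 212 flanks, beside 149333 of 2660506 bins and 8855 of 89938 flanks over all viewpoints. Bins of 2 kb gave 2 calls, and expectation by fragment length gave 1 bin. The dispersion with no count left out gave 2 of the 212 flanks, those of Usp19 and Impdh2 from Tusc2 with 5 and 4 events. The remaining alternatives gave 0. The 2 flanks from Tusc2 are not read as contacts. In the main negative binomial test the p of the Usp19 flank was 0.0756, and under that dispersion it fell to 0.00196 on the same 5 events. The same setting raised flank calls over all viewpoints from 61 to 1029 of 89938 and lowered calls of 5 kb bins from 2677 to 749. Over all viewpoints, 2 kb bins gave 3543 calls, and calls moved from 2677 bins of 5 kb to 749 with no count left out of the dispersion, 4271 with the top 1% left out, 149333 with Poisson counts, 789 without each bin's highest fragment, 918 for single fragments and 1484 by fragment length, and to 1738 and 1666 without library b or c. Flank calls moved from 61 to 1029, 103 and 8855 under the same changes of dispersion, to 39 with 1 fragment on each side, 158 by fragment length and 38 without library c. The pooled flank ratio was 1.32 with 1 fragment on each side, 1.64 with 5 and 1.21 with expectation by fragment length, and 1.41 to 1.55 with a library left out. The pooled Uba7 to Apeh ratio was 1.59 over fragments beyond 25 kb, 1.43 by fragment length and 1.44 with viewpoints scaled alike. The median likeness was 0.599 in 10 kb bins and 0.377 to 0.440 with a library left out. The pooled share on that side was 63.0% from 10 kb, the median slope -0.87 from 20 to 500 kb, and the gene body ratio 1.69 to 1.78 with a library left out. The cause was not tested. Counts were low at the flanks, where a pair of the 6 promoters had at most 31 events.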
